A study of Homo sapiens with 4 samples.

Results

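The replication-dependent histone genes were taken as the protein-coding genes whose symbols run H1-1 to H1-6, H2AC, H2BC, H3C and H4C followed by a number, or H4-16, which left 70 of the 60671 genes in the expression tables. They comprised 6 H1, 17 H2A, 19 H2B, 13 H3 and 15 H4 genes. Symbols were assigned from Ensembl gene identifiers, and 2 members, H2AC18 (ENSG00000203812) and H2AC19 (ENSG00000272196), were named through the older symbols of GENCODE 29. A level of at least 1 TPM, a share of all transcripts after scaling by transcript length, in at least 1 library was reached by 54 members, 16 stayed under 1 TPM throughout, and 8 of those (H1-1, H2AC1, H2BC1, H2BC10, H2BC12L, H3C8, H4C6 and H4C7) were listed at 0 in all 4 libraries.

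RNA sequencing was carried out on 2 human prostate carcinoma cell lines, 22RV1 and PC3. In each line, cells carrying a short hairpin RNA against the RNA helicase gene DDX52 (shDDX52) were compared with cells carrying a control hairpin (shCON). Both hairpins were delivered by lentivirus in the PLKO.1 vector and the stable transformants were selected with puromycin, so control cells had also been transduced and selected. There was 1 library per condition, 4 in all, and 1 hairpin against DDX52, so no value below has a replicate error, no difference within a line or between the lines could be tested against replicates, a fit across the lines was not run, and every difference is a description of these libraries.

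The labels could be checked against marker genes. DDX52 in shCON and shDDX52 stood at 4.88 and 1.2 TPM for 22RV1 and at 9.2 and 2.07 TPM for PC3. CAV1, a caveolin gene, was at 0.45 and 0.39 TPM in 22RV1 against 162 and 130.2 TPM in PC3. VIM, also listed as a PC3 marker, separated the control libraries less, at 8.08 TPM in 22RV1 shCON and 12.6 TPM in PC3 shCON. The libraries differed in RNA that lacks a poly(A) tail. Genes annotated as ribosomal RNA summed in shCON and shDDX52 to 11905 and 864 TPM for 22RV1, but to 914 and 30820 TPM for PC3.

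Replication-dependent histone genes supply the core histones H2A, H2B, H3 and H4 and the linker histone H1 that package newly copied DNA, and their messages accumulate during S phase. Most are intronless genes in a few clusters. Their messages normally end in a conserved stem-loop rather than a poly(A) tail: the stem-loop is bound by SLBP, and cleavage just after it is guided by the U7 small nuclear RNA. Because so little follows the stem-loop in a processed message, both the selection of RNA before sequencing and the transcript model used for quantification bear on what a library records of these genes.

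The stem-loops of 4 abundant members are shown because they are the feature that sets these messages apart, and because the H4 genes carried their own versions. They were read from GENCODE 29 transcripts (GRCh38) in the sense of the message, with the 16 bases of the stem-loop in capitals.
H2AC18: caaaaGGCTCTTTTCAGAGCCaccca
H2BC5: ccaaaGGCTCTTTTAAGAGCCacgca
H4C11: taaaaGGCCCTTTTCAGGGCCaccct
H4C14: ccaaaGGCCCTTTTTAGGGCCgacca

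A stem-loop of this kind was present in the transcript models of 31 members, against 300 of 19922 protein-coding genes (1.51%) in the same annotation. The H2AC18 form was carried by 17 members, none of them H4, and the H2BC5 form by 4. The H4C11 form (5 members) and the H4C14 form (3 members) were found in H4 genes. Of the remaining 39 members, 32 had models that held the coding sequence alone, so the motif could not be looked for in them. Those 32 included H2BC12 and H1-2, the most abundant members, whose models are 381 and 642 bases long. A transcript model running more than 100 bases past the stem-loop was annotated for 23 members, among them H2AC6, with 1128 bases after it, and H4C14, with 1167. Up to 100 bases followed it in the other 8, with 6 bases in H4C11 and 35 in H2AC18 and H2AC19. The longest annotated transcript of the members had a median of 512.5 bases, against 3157 bases for all protein-coding genes, and 57 of the 70 members had a single exon.

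Promoter sequences of RefSeq (GRCh38.p14) were matched for 64 members. In the window from 250 bases before to 50 after the start, the TATA box TATAAA was found on either strand in 67.2% of members and 14.0% of all genes with a promoter. The CCAAT box (CCAAT) was found in 84.4% and 39.7%, and the octamer ATTTGCAT, known from H2B promoters, in 40.6% and 2.19%. All matched H1, H2A, H2B and H3 promoters held a CCAAT box, but 3 of 13 H4 promoters (23.1%) did. The octamer was present in 14 of 18 H2B and 11 of 16 H2A promoters, in 1 H3 promoter and in no H1 or H4 promoter. The 250 bases before the start are printed for H2BC12 and H1-2, which carried most of the summed TPM in PC3, and for H4C12, the member with the largest log2 ratio in 22RV1. Matches on either strand are in capitals, and all 3 genes lie on the minus strand, at chr6:27146859-27147108, chr6:26056471-26056720 and chr6:27831561-27831810.
H2BC12: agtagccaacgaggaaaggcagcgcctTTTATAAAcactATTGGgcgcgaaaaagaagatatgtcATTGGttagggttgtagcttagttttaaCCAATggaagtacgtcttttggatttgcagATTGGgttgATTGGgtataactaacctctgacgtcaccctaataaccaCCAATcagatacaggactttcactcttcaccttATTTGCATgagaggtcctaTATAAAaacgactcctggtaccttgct
H1-2: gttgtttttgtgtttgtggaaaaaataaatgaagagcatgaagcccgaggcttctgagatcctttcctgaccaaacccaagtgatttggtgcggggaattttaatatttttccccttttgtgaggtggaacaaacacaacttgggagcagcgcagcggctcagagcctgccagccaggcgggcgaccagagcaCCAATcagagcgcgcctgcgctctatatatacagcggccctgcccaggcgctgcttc
H4C12: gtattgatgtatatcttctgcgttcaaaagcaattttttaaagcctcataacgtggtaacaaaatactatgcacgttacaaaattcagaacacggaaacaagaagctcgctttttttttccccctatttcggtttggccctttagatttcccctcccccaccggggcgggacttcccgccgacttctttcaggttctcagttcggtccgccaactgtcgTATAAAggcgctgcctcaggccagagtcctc

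The H2BC12 stretch held an octamer next to a TATA box at the end close to its own start, 6 CCAAT boxes, and at the far end TTTATAAA, in which TATAAA and its reverse complement overlap and which lies towards the start of the neighbouring gene H2AC12. The H1-2 stretch held 1 CCAAT box and no TATAAA, and that of H4C12 1 TATA box and no CCAAT box. These matches are descriptions of letters in a window and not sites of binding.

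The histone genes were far more abundant in PC3 than in 22RV1. Their summed TPM was 234 in 22RV1 shCON and 1809 in PC3 shCON, a ratio of 7.73 (log2 2.95). In RNA from whole cultures, a different share of cells in S phase and a different amount of histone RNA per cell cannot be told apart. Ribosomal RNA genes also differed between these libraries, at 11905 TPM in 22RV1 shCON and 914 TPM in PC3 shCON. Whether poly(A) RNA was selected is not given, and its part in the ratio was not tested. As TPM is a level per transcript length, the sum could be set against single genes: H2AZ1, a replication-independent H2A variant made throughout the cell cycle, stood at 816 TPM in 22RV1 shCON, above all 70 members together, and at 460 TPM in PC3 shCON, below them.

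The difference between the lines was carried by a minority of the members. H2BC12, an H2B gene, was at 24.6 TPM in 22RV1 shCON and 731 TPM in PC3 shCON, and H1-2, a linker histone gene, at 20.8 and 412 TPM. In 22RV1 shCON both were below H2AC20 at 25.2 TPM, whereas in PC3 they were the highest members and made up 40.4% and 22.8% of the summed TPM of shCON. Without H2BC12 the log2 ratio between the lines was 2.36, and without both it was 1.82. H2A genes also differed widely, with H2AC6 at 1.25 TPM in 22RV1 shCON and 56.3 TPM in PC3 shCON and H2AC19 at 4.50 and 113 TPM. As H2AC19 has the same coding sequence as H2AC18, its own value depends on how reads were split. The pair was at 24.8 TPM in 22RV1 shCON and 180.04 TPM in PC3 shCON. In contrast, H2AC20 (25.2 and 23.5 TPM) and H2AC25 (24.1 and 33.0 TPM) were at similar levels in the lines, and H1-5 was higher in 22RV1 (4.76 and 0.26 TPM).

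Of the 49 members with at least 1 TPM in either control library, 23 (46.9%) were at least 2-fold higher in PC3 shCON on the scale of log2(TPM + 1), where 19.9% of all 15727 genes were. At least 2-fold lower were 6 members (12.2%), against 21.3% of all genes. The median member was 0.70 higher on the log2 scale, against -0.07 for all genes. The log2(TPM + 1) scale, used for every single gene and median here, understates ratios of genes near or under 1 TPM. Against 52.3% of all 15727 genes, 17 of 23 S phase and proliferation genes had the higher TPM in 22RV1 shCON. Among them MCM2, a subunit of the replicative helicase, was at 219 TPM in 22RV1 shCON and 59.2 TPM in PC3 shCON. SLBP, the stem-loop binding protein gene from the list for histone message processing, was at 87.6 and 16.3 TPM.

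**Figure D1:**
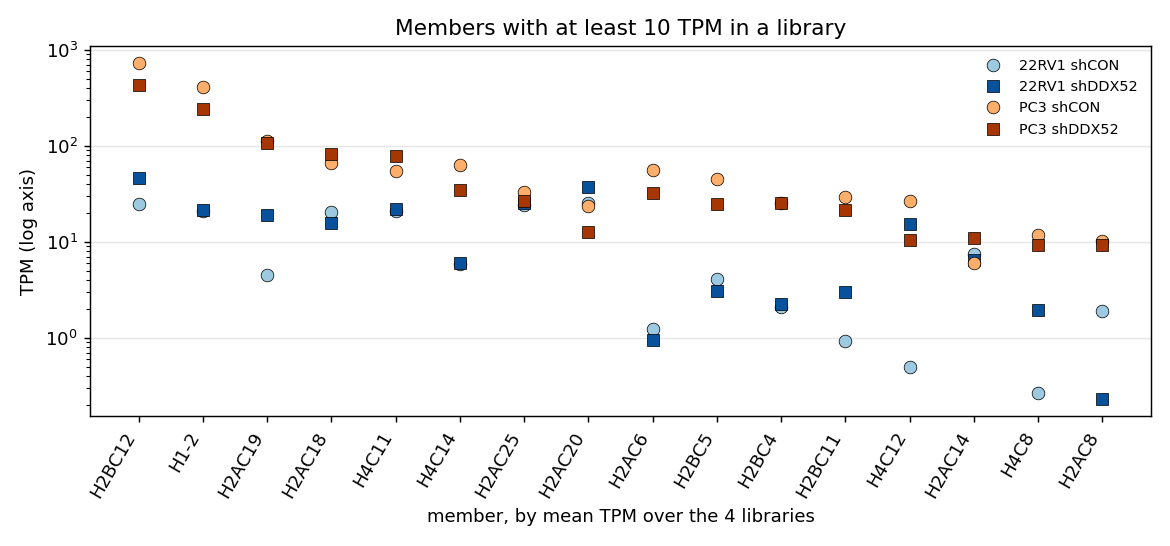
TPM on a log axis of the 16 members that reached 10 TPM in a library, ordered by mean TPM over the 4 libraries, with 1 point per library and no error since each condition has 1 library. In PC3, H2BC12 (731 and 429 TPM) and H1-2 (412 and 240.5 TPM) stand above all others, while the 22RV1 points reach at most 45.9 TPM.

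With the DDX52 hairpin, the summed TPM of the members differed from control in opposite directions in the lines. It was 279 in 22RV1 shDDX52 against 234 in shCON (log2 0.25), and 1269 in PC3 shDDX52 against 1809 in shCON (log2 -0.51). The medians of single genes had the opposite signs to the sums in both lines. The median log2 ratio of the 43 members that passed the filter in 22RV1 was -0.11, with 24 below 0 and 19 above, and in PC3 that of 49 members was 0.22, with 20 below 0 and 29 above. Over all genes passing the same filter, the medians were -0.08 and -0.04, and 58.8% and 53.5% of genes lay below 0. The median of the members in 22RV1 was thus close to that of all genes. A member passed if the higher of a line's libraries reached 1 TPM, and the 3 members nearest to it on the inside lay at 1.01 to 1.02 TPM in 22RV1 and at 1.01 to 1.36 TPM in PC3. The next 3 outside it lay at 0.83 to 0.9 TPM and at 0.84 to 0.97 TPM. In PC3, 40 members reached 1 TPM in shCON and 49 in shDDX52, so those that passed through 1 library only did so through shDDX52. Their ratios were above 0 because of the filter, and the sign of the PC3 median rests in part on them. In 22RV1, 37 members reached 1 TPM in shCON and 33 in shDDX52.

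**Figure D2:**
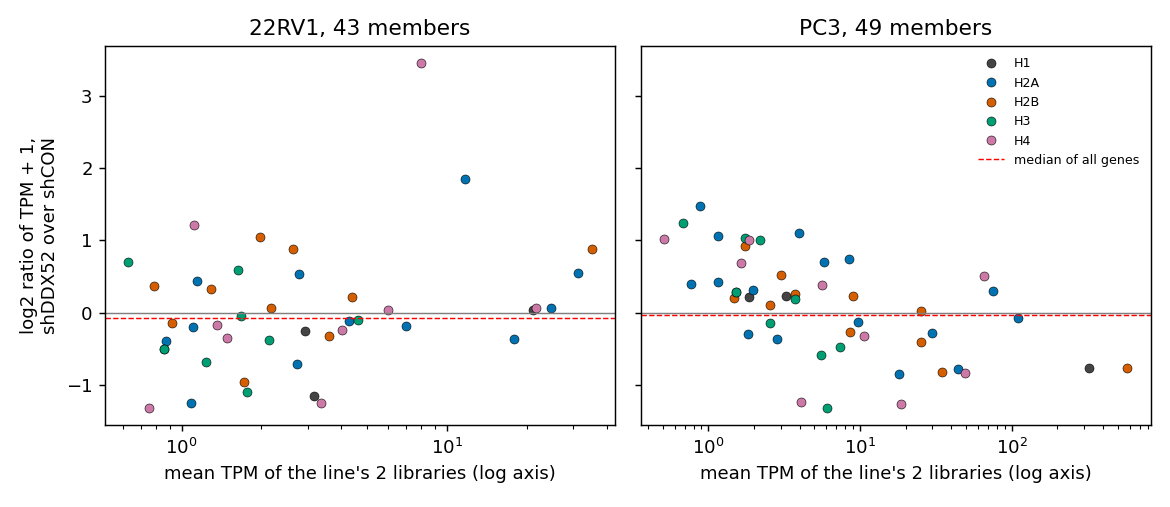
Log2 ratio of TPM + 1 (shDDX52 over shCON) of each member passing the filter, against its mean TPM in the line's 2 libraries on a log axis, coloured by class, with the median of all genes dashed. In PC3 the points lie mostly above 0 at low levels and below 0 at high levels, and in 22RV1 low members lie mostly below 0. Low PC3 members that passed only through shDDX52 lie above 0 because of the filter.

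The ratios differed by the level of the gene, low against high. In PC3, the 24 members whose higher library was at 1 to 5 TPM had a median log2 ratio of 0.35, with 21 above 0, while 51.9% of all genes at that level were above 0. All members that passed the filter only through PC3 shDDX52 were in this group, at 1.01 to 2.81 TPM there. They lay above 0 because of how they passed, so the low end of this pattern rests in part on the filter. The 12 members at 5 to 20 TPM had a median of -0.20, and the 13 members at 20 TPM and over one of -0.77, with 10 below 0, against 62.2% of all genes at that level. In 22RV1 the medians ran the other way: the 32 members at 1 to 5 TPM had a median of -0.19, with 21 below 0, against 58.0% of all genes at that level, and 5 of the 6 members at 20 TPM and over were above 0, against 44.1%. With a filter of 5 TPM in place of 1, the medians took the signs of the sums, 0.06 over 11 members in 22RV1 and -0.32 over 25 members in PC3.

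The sums themselves rested on few genes. In PC3, 26 members were lower in shDDX52, by 618 TPM in all, and H2BC12 alone accounted for 303 TPM of it. H2BC12 and H1-2 together made up 76.7% of the loss, and 33 members were higher by 78.2 TPM in all. Without H2BC12 the log2 ratio of the sums in PC3 was -0.36, and without H2BC12 and H1-2 it was -0.15. In 22RV1, 25 members were higher by 78.5 TPM in all, and 32 members were lower by 33.5 TPM in all. Of the gain, 64.5% (50.6 TPM) came from the 3 largest, H2BC12, H4C12 and H2AC19. These 3, picked by their gain, gained more than the whole sum did, from 234 to 279 TPM, so the other members together were lower in shDDX52. The largest single loss among those others was 4.74 TPM in H2AC18, which has the same coding sequence as H2AC19. The lower remainder thus depends on how reads were split between copies. H4C12 and H2AC19 each share a coding sequence with another member. Without H2BC12 the log2 ratio of the sums in 22RV1 was 0.15. The 54 members under 10 TPM in every library summed to 68.7 TPM in 22RV1 shCON and 53.1 TPM in shDDX52, and to 100.8 and 113 TPM in PC3, opposite in both lines to the sums over all members.

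The summed TPM of the RNA classes without a poly(A) tail differed by more than that of the histone genes between shCON and shDDX52, and with the opposite sign. The summed ribosomal RNA was lower in 22RV1 shDDX52 and higher in PC3 shDDX52, as above. Small nuclear RNA genes summed to 3781 and 295 TPM in the 22RV1 libraries and to 214 and 6175 TPM in the PC3 libraries. Single small nuclear RNA genes did not share 1 direction. Of 31 passing the filter in 22RV1, 18 were below 0 and 13 above, and of 32 in PC3, 16 were below and 16 above. The mitochondrial genome took 9.81% and 12.99% of the listed TPM in 22RV1 and 8.10% and 10.3% in PC3. Their part in the histone values was not tested. Nuclear protein-coding genes took 85.0% and 83.7% of the listed TPM in 22RV1 shCON and shDDX52 and 88.4% and 81.3% in PC3, and with the histone sum taken over those genes the log2 ratio was -0.38 in PC3.

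At least 2-fold lower in 22RV1 shDDX52 were 5 of 43 members (11.6%), against 2.86% of 14438 genes, and at least 2-fold higher were 4 (9.30%), against 2.24%. In PC3 these were 3 of 49 members (6.12%), against 3.44% of 14262 genes, and 8 (16.3%), against 2.86%. The shares of members were above those of all genes in both directions and both lines. Many of these members passed the filter only through the library where they were high, which fixed their direction. They were H4C12, H2BC11 and H4C8 (higher) and H2AC8, H3C4 and H4C2 (lower) in 22RV1. In PC3 they were H3C4, H4C2, H2AC7, H3C7, H2AC21 and H4C16 (all higher). At 5 TPM and over, 1 of 11 members was 2-fold lower in 22RV1 and 2 were higher, against 1.81% and 1.4% of all genes, and 3 of 25 were lower in PC3 and 1 higher, against 2.45% and 2.17%. The 2 higher in 22RV1 were H2AC19 and H4C12, and H4C12 and H4C15 were among those lower in PC3. Each of these shares its coding sequence with another member.

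Of the 38 members that passed the filter in both lines, 5 were below 0 in both, 8 above 0 in both, 14 below 0 in 22RV1 and above 0 in PC3, and 11 the reverse. Over the 12175 genes that passed in both lines, these shares were 32.5%, 18.5%, 27.4% and 21.4%. On the log2(TPM + 1) scale no member was past 2-fold in the same direction in both lines, as were 0.559% of all genes, so an overlap of 0 says nothing about the members. H4C12, H3C4 and H4C2 were past 2-fold in opposite directions, as were 0.723% of all genes. The 5 members below 0 in both lines were H2BC5, H2AC6, H2AC8, H2AC16 and H3C2, and of these H2AC6 and H2BC5 exceeded 20 TPM in a library.

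**Figure D3:**
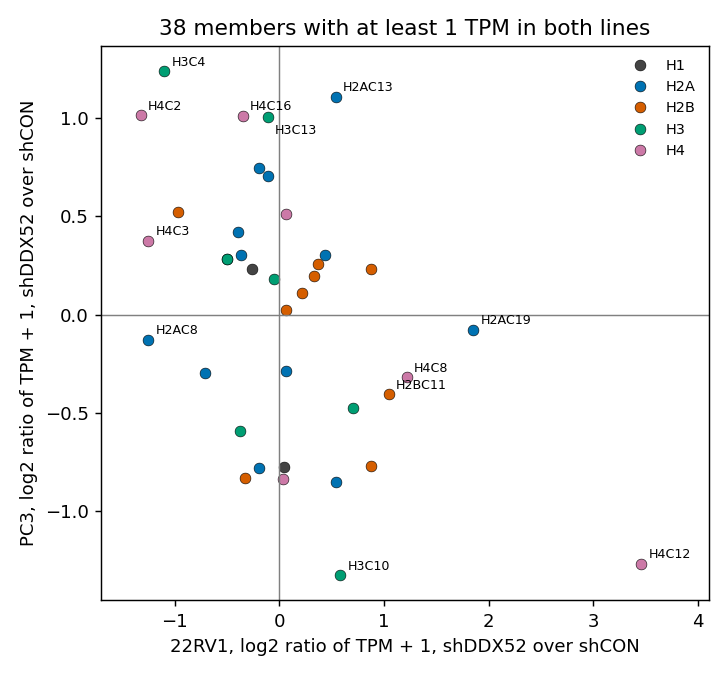
Log2 ratio of TPM + 1 (shDDX52 over shCON) in 22RV1 on the x axis and in PC3 on the y axis, 1 point for each of the 38 members passing the filter in both lines, with names where a ratio reached 2-fold. Points fall in every combination of signs, and H4C12 lies apart at 3.46 and -1.27.

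By class, the H2A, H2B and H4 sums were higher with shDDX52 in 22RV1 and lower in PC3, and the H1 and H3 sums were lower in both lines. The H2A sum in PC3 was 0.05 higher on the log2 scale when taken over nuclear protein-coding genes. These directions were not class-wide. In 22RV1 the medians of H1, H2A, H2B, H3 and H4 were -0.26, -0.15, 0.27, -0.38 and -0.18. In PC3 they were all above 0, at 0.22, 0.30, 0.11, 0.23 and 0.38, counting members that passed the filter only through shDDX52. In 22RV1 the value listed for H4C12, at 0.50 and 15.5 TPM, differed by more than the H4 sum, at 44.0 and 53.9 TPM, but H4C12 shares its coding sequence with H4C11. H2A made up 42.5% of the summed TPM in 22RV1 shCON and 17.9% in PC3 shCON, whereas H2B made up 18.8% and 47.6% and H1 12.3% and 23.1%. The share of H3 was the smallest, 7.53% and 1.96%, although nucleosomes hold the core histones in equal numbers. H3-3B, a replication-independent H3 gene, was at 424 and 769 TPM in the control libraries.

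**Figure D4:**
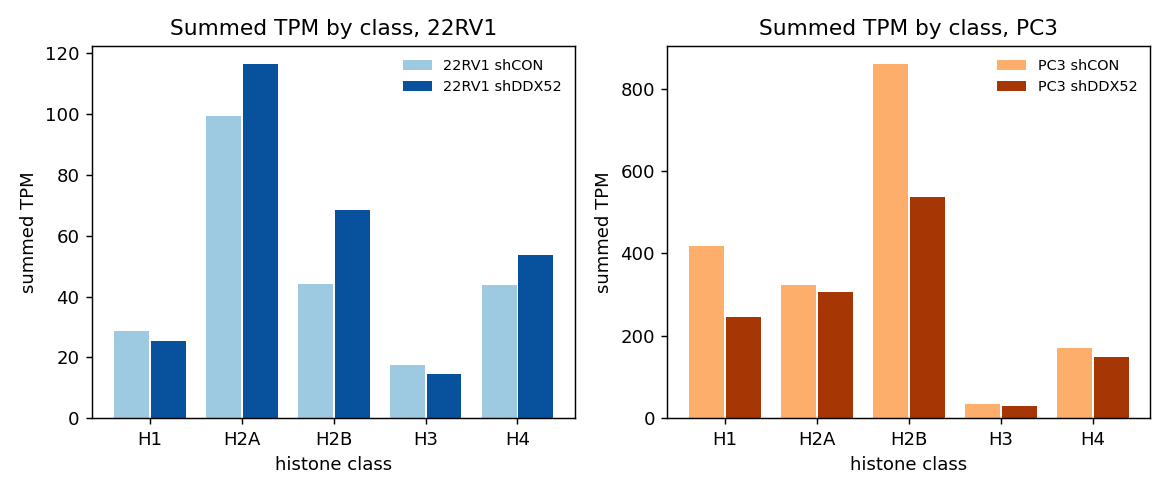
Summed TPM of each histone class in shCON and shDDX52, 22RV1 on the left and PC3 on the right with separate axes from 0 and no error bars, since each condition has 1 library. H2B in PC3 (860.4 and 536 TPM) is the tallest pair, and the small H2A difference in PC3 (324 and 307 TPM) changes sign over nuclear protein-coding genes.

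The linker histone H1 binds the DNA where it enters and leaves the nucleosome. The H1 sum was 28.8 TPM in the 22RV1 control and 25.5 TPM in shDDX52 (log2 -0.17), and 417 and 246 TPM in PC3 (log2 -0.76). H1-2 was 20.8 and 21.4 TPM in 22RV1 and 412 and 240.5 TPM in PC3, log2 ratios of 0.04 and -0.78, so that it set the class sum in PC3. H1-5 had 4.76 TPM in the 22RV1 control and 1.57 TPM in shDDX52 (log2 -1.16) and stood at 0.26 and 0.33 TPM in PC3. H1-4 was between 2.56 and 3.61 TPM in all 4 libraries. The testis gene H1-6 reached at most 0.10 TPM.

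H2A pairs with H2B in the nucleosome. The H2A sum was 99.5 and 117 TPM in 22RV1 (log2 0.23) and 324 and 307 TPM in PC3 (log2 -0.08, or 0.05 over nuclear protein-coding genes). H2AC18 and H2AC19, on chromosome 1, have the same coding sequence, so reads within it cannot be assigned to one or the other. H2AC19 had 4.50 TPM in the 22RV1 control and 18.9 TPM in shDDX52 (log2 1.85), and 113 and 107 TPM in PC3. H2AC18 was 20.3 and 15.6 TPM in 22RV1 and 67.0 and 82.9 TPM in PC3. The pair was 24.8 and 34.5 TPM in 22RV1 (139% of control) and 180.04 and 190.2 TPM in PC3 (106%), whereas H2AC19 alone was at 419% of control in 22RV1.

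H2AC20 was 25.2 and 37.2 TPM in 22RV1 (log2 0.54) and 23.5 and 12.6 TPM in PC3 (log2 -0.85). H2AC6 was close to 1 TPM in both 22RV1 libraries, and was 56.3 TPM in PC3 shCON and 32.3 TPM in shDDX52 (log2 -0.78). H2AC25, which lies apart at 1q42, differed little, with 24.1 and 25.2 TPM in 22RV1 and 33.0 and 26.8 TPM in PC3. The other 2-fold differences of the class were in low genes. H2AC8 was 1.93 and 0.23 TPM in 22RV1 (log2 -1.25) but 10.2 and 9.24 TPM in PC3. H2AC13 was 2.13 and 5.75 TPM in PC3 (log2 1.11) and 2.08 and 3.47 TPM in 22RV1. H2AC7 and H2AC21 were 0 and 0.40 TPM in PC3 shCON and 1.77 and 1.91 TPM in PC3 shDDX52, past 2-fold on the log2(TPM + 1) scale, and H2AC14 was 6.09 and 10.9 TPM there.

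The H2B sum was 44.1 TPM in the 22RV1 control and 68.5 TPM in shDDX52 (log2 0.64), and 860.4 and 536 TPM in PC3 (log2 -0.68), the widest contrast between the lines among the 5 classes. The leading gene was H2BC12 (ENSG00000197903, chr6:27146418-27146798 in GRCh38), which had 24.6 TPM in the 22RV1 control and 45.9 TPM in shDDX52, and 731 and 429 TPM in PC3. The log2 ratios were 0.87 and -0.77, and H2BC12 accounted for 303 TPM of the difference of the H2B sum in PC3. H2BC5 was 4.12 and 3.07 TPM in 22RV1 and 44.7 and 24.7 TPM in PC3 (log2 -0.83), lower in both lines. H2BC11 was 0.94 and 3 TPM in 22RV1 (log2 1.04) and 29.02 and 21.7 TPM in PC3 (log2 -0.40). H2BC4 differed by under 0.1 on the log2 scale in both lines, with 2.11 and 2.25 TPM in 22RV1 and 25.1 and 25.5 TPM in PC3.

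H3 and H4 form the tetramer at the core of the nucleosome. The H3 sum was 17.6 and 14.4 TPM in 22RV1 (log2 -0.29) and 35.5 and 30.5 TPM in PC3 (log2 -0.22). H3C3 had the highest mean of the class, with 0.24 and 1.02 TPM in 22RV1 and 8.73 and 6 TPM in PC3. H3C10 was 1.11 and 2.16 TPM in 22RV1 and 9.14 and 3.05 TPM in PC3 (log2 0.58 and -1.32). No H3 gene reached 10 TPM in any library. H3C4 was 2.77 and 0.76 TPM in 22RV1 (log2 -1.10) and was listed at 0 in PC3 shCON and at 1.36 TPM in PC3 shDDX52. H3C7 and H3C13 were 2-fold higher in PC3, from 0.80 to 2.70 TPM and from 1.12 to 3.25 TPM. H3C14 and H3C15, which have the same coding sequence, held identical values in every library, 1.18, 0.54, 1.28 and 1.77 TPM.

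The H4 sum was 44.0 and 53.9 TPM in 22RV1 (log2 0.29) and 171 and 148 TPM in PC3 (log2 -0.21). H4C12 (ENSG00000273542, chr6:27831216-27831527 in GRCh38) had 0.50 TPM in the 22RV1 control and 15.5 TPM in shDDX52, and 26.9 and 10.6 TPM in PC3, with log2 ratios of 3.46 and -1.27. Its coding sequence is the same as that of H4C11, which was 21.2 and 22.2 TPM in 22RV1 and 54.3 and 77.8 TPM in PC3. The pair was 21.7 and 37.7 TPM in 22RV1 (174% of control) and 81.2 and 88.4 TPM in PC3 (109%). In 22RV1 most of the higher pair sum was listed under H4C12, as H4C11 was nearly level, so the pair is no separate reading of H4C12. Reads within the shared sequence cannot be assigned to one or the other, so the gain cannot be credited to H4C12 rather than H4C11. In PC3 H4C12 was lower and H4C11 and the pair were higher. The annotated model of H4C12 holds the coding sequence alone (312 bases in all), which H4C11 shares.

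H4C14 and H4C15, a pair with 1 coding sequence and the same stem-loop, had 5.92 and 6.08 TPM (H4C14) and 0.74 and 0.30 TPM (H4C15) in 22RV1. In PC3, H4C14 was 63.4 and 35.1 TPM and H4C15 6.14 and 2.03 TPM, log2 ratios of -0.84 and -1.24, and the pair stood at 53.3% of control. Both genes were lower in PC3 with shDDX52. H4C8 was 0.27 and 1.95 TPM in 22RV1 (log2 1.22) and 11.9 and 9.30 TPM in PC3. H4C3 was 5.14 and 1.58 TPM in 22RV1 (log2 -1.25) and 4.79 and 6.52 TPM in PC3. H4C2 had 1.5 TPM in the 22RV1 control, was listed at 0 in 22RV1 shDDX52 and PC3 shCON, and was 1.02 TPM in PC3 shDDX52, and H4C16, the only member on chromosome 12, was 0.89 and 2.81 TPM in PC3.

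The coding sequences differed in how far copies could be told apart. The 15 H4 genes had 13 distinct coding sequences and 2 proteins, of which 1 was encoded by 14 genes, and 10 of 13 H3 genes encoded 1 protein. The 17 H2A genes encoded 11 proteins, the 19 H2B genes 15, and each of the 6 H1 genes its own. The 8 genes in the identical pairs summed to 55.5 and 79.6 TPM in 22RV1 and 333 and 319 TPM in PC3. Without them the log2 ratio of the sums was -0.64 in PC3.

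Some neighbouring genes that start head to head differed widely in level. There were 12 such pairs with 219 to 357 bases between the genes, and in all but 1 an H2A gene faced an H2B gene. Of the 7 pairs with both genes at 1 TPM or more in PC3 shCON, 2 differed by over 5-fold. H2BC12 and H2AC12, separated by 331 bases around the promoter printed above, were at 731 and 1.67 TPM in PC3 shCON, a ratio of 438, and with shDDX52 H2BC12 was 429 TPM and H2AC12 2.30 TPM. H2BC11 and H2AC11 were at 29.02 and 3.31 TPM, a ratio of 8.77. The other pairs with both genes at 1 TPM or more in PC3 shCON were closer, as for H2AC8 and H2BC8 at 10.2 and 9.45 TPM, a ratio of 1.08, and H2AC6 and H2BC4 at 56.3 and 25.1 TPM, a ratio of 2.24. H2AC25, at 33.0 TPM, faced H2BC26, at 0.49 TPM. In 22RV1 shCON H2BC12 and H2AC12 were at 24.6 and 0.82 TPM, and the widest ratio among pairs with both genes at 1 TPM or more there was 16.1, for H2AC20 at 25.2 TPM and H2BC21 at 1.57 TPM.

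Split by location, the 55 members on chromosome 6 summed to 140.3 and 163 TPM in 22RV1 and to 1488 and 978 TPM in PC3, and the 11 members of the main chromosome 1 cluster to 67.4 and 88.8 TPM and to 287 and 260.1 TPM. The PC3 difference of the sums was larger on chromosome 6 (log2 -0.60) than on chromosome 1 (log2 -0.14), where H2BC12 and H1-2 do not lie. The medians of single members in PC3 were alike, 0.20 on chromosome 6 and 0.23 on chromosome 1. Split by model, the 8 members with up to 100 bases past the stem-loop summed to 59.6 and 68.3 TPM in 22RV1 and 294 and 311 TPM in PC3, and the 23 with a longer end to 46.4 and 50.7 TPM and to 241 and 173 TPM. The 39 with no stem-loop in their models, H2BC12 and H1-2 among them, summed to 128 and 160.01 TPM and to 1275 and 784 TPM. In PC3 the log2 ratios of the sums of these 3 groups were 0.08, -0.47 and -0.70. H2BC12 and H1-2 together held 1144 and 669 TPM of the last group. The medians of single members in PC3 did not follow that order, at 0.21, -0.14 and 0.34. Pseudogenes with symbols of the same kind, 13 in all, summed to 8.88 and 8.44 TPM in 22RV1 and 6.15 and 4.44 TPM in PC3.

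The replication-independent histones mostly have polyadenylated messages and were listed for comparison. Of 10 that passed the filter in 22RV1, none was 2-fold lower or higher, and of 11 in PC3, 1 was lower: H3-3A, a second gene for the protein H3.3, at 346 and 169 TPM (log2 -1.02) and at 212 and 142 TPM in 22RV1 (log2 -0.57). Their medians were -0.11 and -0.14. H2AJ was listed at 0 in both 22RV1 libraries and was 149 and 130 TPM in PC3, and H2AX, the variant phosphorylated at DNA breaks, was 416 and 518 TPM in 22RV1 and 339 and 272 TPM in PC3.

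Of the genes that act in transcribing and processing the histone messages, none of 12 in 22RV1 or 13 in PC3 was past 2-fold on the log2(TPM + 1) scale, where few genes of any kind were, and the medians were -0.096 and -0.0027. SLBP was 87.6 and 69.5 TPM in 22RV1 (log2 -0.33) and 16.3 and 17.1 TPM in PC3. NPAT, the coactivator of histone genes at the start of S phase, was 0.91 and 0.75 TPM in 22RV1 and 1.86 and 1.71 TPM in PC3. LSM10 and LSM11, proteins of the U7 particle, were 70.4 and 63.6 TPM and 1.83 and 1.21 TPM in 22RV1, and 73.6 and 61.5 TPM and 1.71 and 2.23 TPM in PC3. RNU7-1, the U7 RNA gene itself, was listed at 0 in all 4 libraries.

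None of 16 histone chaperone genes and none of 23 S phase genes was past 2-fold in either line on the same scale. The chaperone medians were -0.08 in both lines, and the S phase medians were -0.11 in 22RV1, with 18 of 23 below 0, and 0.02 in PC3, with 11 below 0. PCNA, the sliding clamp of the replication fork, was 196 and 161 TPM in 22RV1 and 309 and 274 TPM in PC3. HAT1, which acetylates new H4, was the chaperone list's lowest ratio in PC3, at 45.5 and 27.9 TPM (log2 -0.69).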

How the data were processed

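Total RNA was extracted with Trizol and libraries were made with the Illumina TruSeq RNA kit. The labels do not say whether poly(A) RNA was selected. The deposited tables hold TPM per Ensembl gene, computed by the authors on the Majorbio platform. Their processing notes name CASAVA, HISAT2 and hg19, and the quantification program and annotation release are not given in the sources used here. Of 60671 identifiers, 58453 were found in GENCODE 29 (GRCh38), which gave all positions and transcript models printed here, and coordinates were not converted. TPM keeps no read depth, so no counting interval could be given.

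Sums were compared as log2 ratios of summed TPM, single genes as log2(TPM + 1), with a filter of 1 TPM in either library and a fold of 2. With 1 library per condition nothing was tested, and no model was fitted across the lines. A log2 value within 0.1 of the reported one, or a count within 1.5 times, was called unmoved by an alternative. The calculations were tested on simulated data and run in Python 3.11.15 with pandas 2.3.3, numpy 2.4.6 and matplotlib 3.10.9.

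Named in full were members with at least 10 TPM in a library, those past 2-fold, the leading gene of each class, members at 0 and fixed lists of related genes and markers. Some markers are not reported here. Pair partners, H1-4, H2AC16, MCM2, PCNA and HAT1 were named after their values were seen. The members and lists were chosen with earlier results of these data known.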

Additional observations from a re-analysis of the deposited data

Results flagged for a closer look

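These results had opposite directions in 22RV1 and PC3, and with 1 library per condition the difference was not tested. The log2 ratio of the summed TPM of all members differed by -0.77 (PC3 minus 22RV1, -0.51 and 0.25), while the median log2 ratio of single members was 0.33 higher in PC3. That median was -0.11 in 22RV1, close to the -0.08 of all genes, and 0.22 in PC3, against -0.04. The PC3 median counts members that passed the filter only through shDDX52, which lay above 0 for that reason. By class the difference, PC3 minus 22RV1, was -0.31 for H2A, -1.32 for H2B and -0.50 for H4. The H2A value in PC3 changed sign when taken over nuclear protein-coding genes. Of single genes, H4C12 differed by -4.72 on the log2(TPM + 1) scale, H3C4 by 2.34 and H4C2 by 2.34. H4C12 shares its coding sequence with H4C11, and H3C4 and H4C2 were low in every library and listed at 0 in at least 1.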

How the results depend on the processing

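No paired analysis was possible because within a line the groups have 1 library each, and a fit across the lines with the line as a block was not run. Of 236 values recomputed for 70 results, 162 were unmoved (log2 values within 0.1, counts within 1.5 times), 71 moved and 3 reversed. Unless named, the cause was not tested. In 22RV1 the median was 0.061 (reversed) at 5 TPM and over and 0 without a filter. Members 2-fold lower numbered 9 with a pseudocount of 0.1 and 1 at 5 TPM and over, and 8 were 1.5-fold lower. Members 2-fold higher numbered 2 at 5 TPM and over, and 7 were 1.5-fold higher. In PC3 the median was -0.32 (reversed) at 5 TPM and over and 0 without a filter. Members 1.5-fold lower numbered 10, and 1 was 2-fold higher at 5 TPM and over. The log2 ratio of sums in PC3 was -0.38 over nuclear protein-coding genes, -0.64 without identical copies, -0.36 without H2BC12 and -0.15 without H2BC12 and H1-2. Over nuclear protein-coding genes the PC3 class sums were -0.63 for H1, 0.053 for H2A (reversed), -0.55 for H2B, -0.091 for H3 and -0.079 for H4. The log2 ratio of sums, PC3 shCON over 22RV1 shCON, was 2.36 without H2BC12 and 1.82 without both H2BC12 and H1-2. Leaving out both leading genes, or the 2 genes named by GENCODE 29, was chosen after seeing the data. Of 153 single-gene values, 101 were unmoved and 52 moved. Without read counts, members near 1 TPM cannot be given a precision.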

Other observations

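H3-4, a testis H3 gene that matches only the older naming scheme of these genes, was listed at 0 in 3 libraries and at 0.18 TPM in PC3 shDDX52, so its inclusion would not move the sums. Of the 10 cell type markers, 1 of 9 passing the filter in 22RV1 was 2-fold higher, KRT7 at 8.39 and 19.9 TPM, and 1 of 7 in PC3, VIM, with none 2-fold lower in either line. VIM, the vimentin gene, was 8.08 and 5.57 TPM in 22RV1 and 12.6 and 66.7 TPM in PC3 (log2 2.31). KLK3 and FOLH1, further prostate genes, were 6.84 and 4.51 TPM and 67.9 and 77.4 TPM in 22RV1 and below 1 TPM in PC3. HOXB13, KRT8 and KRT18 stayed under 2-fold between shCON and shDDX52 in both lines.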
